A study of Homo sapiens with 22 samples.

Results

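JUN regions at gene promoters that carried no FOXA2 were examined in NCI-H660, a cell line derived from a human prostate tumour with neuroendocrine features. The members were chosen from 2 lists of enriched regions. A region of the JUN list from cells given a control siRNA (siNC) was taken if any of its bases lay within 1 kb of the start of a protein-coding transcript and if it shared no base with the FOXA2 list from vehicle-treated cells. This gave 3874 members among 18401 JUN regions (21.1%), and the series held 871377 regions in its 22 lists. Of the other JUN regions, 249 lay at promoters with FOXA2, 10253 were distal without FOXA2 and 4025 were distal with FOXA2. JUN and FOXA2 were the features the choice was made on, so their presence or absence in those 2 lists is no result.

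The lists came from ChIP-seq, which sequences DNA recovered with an antibody against a protein or histone mark, and from ATAC-seq, which sequences DNA that a transposase can reach. NCI-H660 cells gave FOXA2 lists under vehicle or under ORY-1001 (10 µM, 4 h), an inhibitor of the histone demethylase LSD1, JUN lists under siNC or an siRNA against FOXA2 (siFOXA2), and vehicle lists of H3K4me2 and of accessible chromatin. PC3, a line with no androgen receptor, gave FOXA2 lists under vehicle, ORY-1001 (10 µM, 4 h) or C12 (0.5 µM, 4 h), also an LSD1 inhibitor, JUN and FOSL1 lists under siNC or siFOXA2, vehicle lists of H3K27ac and of accessible chromatin, and 2 further vehicle FOXA2 lists with no labelled antibody. LNCaP, an androgen-responsive luminal line, gave JUN lists under siNC or an siRNA against FOXA1 (siFOXA1). Vehicle JUN lists came from LNCaP cells overexpressing FOXA2 (FOXA2OE) and from cells titled FOXA2K265R, a FOXA2 with a lysine changed to arginine. FOXA2OE cells under vehicle also gave a FOXA2 list. The FOXA2K265R sample carried FOXA2OE in another of its labels, and its title was followed. Each group held 1 list except the 2 further FOXA2 lists, so no difference between conditions could be tested and no p-value is given. Intervals in parentheses are Wilson 95% intervals and cover counting error only. The lists held no read counts, so depth was unknown and a region missing from a list may only have missed the caller's threshold. FOXA2 itself was not measured in the siFOXA2 cells by any list. The promoters of 25 of 26 neuroendocrine secretory and neuronal genes were accessible in NCI-H660, and so were those of 16 of 19 androgen receptor and luminal genes, so promoter accessibility did not tell the labelled lineage from the luminal one.

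JUN is the founding subunit of AP-1, a dimer of basic leucine zipper proteins. With a FOS partner it prefers the sequence TGACTCA or TGAGTCA, called AP-1 here, and with an ATF or CREB-family partner the cyclic AMP response element (CRE), TGACGTCA, which is longer by 1 base and holds a CpG at its centre. Most AP-1 binding in differentiated cells is at distal enhancers, where pioneer factors such as FOXA2 can open chromatin, whereas many promoters are CpG-rich and open in most cell types without a lineage-restricted pioneer.

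The sequences below show the motifs that distinguished strong members from other promoters. All are on the plus strand of hg19, the motif is in capitals, and each comes from within 100 bp of the centre of a member's region, except that the last line of the third set is the centre itself. The first set holds 5 of the highest-scoring members with a CRE, all outside protein-coding transcripts. Relative to the transcript start the sites lay at -196 bp in JUND, -31 bp in MYL6, -114 bp in DUSP8 and -281 bp in CYCS, where negative is upstream, and at 865 bp in HIST1H4B, a name given as in the annotation.
JUND, chr19:18392614-18392643: gccttgtgggtTGACGTCAtgggggcggcc
MYL6, chr12:56552085-56552114: tcctctgagggTGACGTCAtcgggacgtac
DUSP8, chr11:1593601-1593630: tcgggggcaggTGACGTCAgcggagcccgg
HIST1H4B, chr6:26026601-26026630: gaagggggaggTGACGTCActcagcaggac
CYCS, chr7:25165146-25165175: gtcgggagaggTGACGTCActcgcgggcct

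The second set holds members whose best match to the CRE had 1 changed base in its central CpG. Substitutions are counted from 1 at the 5′ end of TGACGTCA, so that C4T marks T in place of C at base 4. JUN, DAAM1, KLF6 and SOX11 carried C4T, KMT2E and SOX4 carried C4G, and RASSF1 carried G5C, which is C4G read from the other strand. The site of the JUN gene itself lay at -63 bp from its start. KMT2E, at -1082 bp, and RASSF1 had theirs in an intron, and the others were outside protein-coding transcripts.
JUN, chr1:59249768-59249797: aaaatagcccaTGATGTCAccccaaggcct
DAAM1, chr14:59655363-59655392: cgaggagagggTGATGTCAcctgcgagtta
KLF6, chr10:3827555-3827584: ctgcgcgccgaTGATGTCAgctccggccaa
SOX11, chr2:5832449-5832478: agctgggggagTGATGTCAcccatatgaca
KMT2E, chr7:104653536-104653565: ctgctgcaggaTGAGGTCAtcgccagccaa
SOX4, chr6:21593797-21593826: gtaaattggaaTGAGGTCAgatttggagct
RASSF1, chr3:50374955-50374984: gcccccaggaaTGACCTCAtcgctccggag

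The third set holds 5 of the highest-scoring members with an AP-1 motif (that of MBD6 also starts DDIT3), 4 of them in introns of annotated transcripts and the one at LARP1 in a UTR. The last line shows the centre of the GSN region, the highest-scoring member with neither an AP-1 nor a CRE-like match, which lay in an intron and has no capitals.
S100A2, chr1:153539159-153539188: tcagccctaagTGACTCAcccgaggttcca
MBD6, chr12:57914521-57914550: gaggaggtgggTGAGTCAtgcgcgcgcgcg
CELSR1, chr22:46773703-46773732: cgcctgagggcTGACTCAcccttccaagaa
LARP1, chr5:154062534-154062563: ccgccagaggcTGAGTCAtcgctgctgcgg
SLC3A2, chr11:62649123-62649152: acgagggtgggTGACTCAgcgtcctccttc
GSN, chr9:124044192-124044221: aagaggaggtgcaggaattcttcccagagg

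Members sat close to transcript starts. The region itself covered a start in 2766 members (71.4%), and the region centre was within 250 bp of the nearest start in 2891 (74.6%). The median centre lay at -26 bp (quartiles -138 and 70 bp), with 2270 centres (58.6%) on the upstream side. The centre fell outside protein-coding transcripts in 1378 members (35.6%), in an intron in 1156 (29.8%), in a UTR in 1086 (28.0%) and in a coding exon in 254 (6.56%). Starts of at least 2 genes were within reach of 583 members (15%), and in 515 (13.3%) these starts were on both strands, the arrangement of a bidirectional promoter. At the edge of the choice, the members at VIM, CDK5RAP2 and EVI5L were 998 or 999 bp from a start with scores of 66, 182 and 68, and the regions near PCGF5, SCXA and SGK3, just outside the limit, scored 70, 69 and 293. The members nearest to FOXA2, at TUBE1, LSR and WDR19, were 3, 13 and 21 bp away from it and scored 21, 26 and 61, and the regions left out for the smallest overlap with FOXA2, at ZKSCAN3, RGS22 and SUPT4H1, shared 7, 19 and 26 bp with it and scored 33, 51 and 24. Few members were near these limits, since 63 (1.63%) had a FOXA2 region within 1 kb and the median gap to the nearest one was 92338.5 bp.

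The authors' score, which ranks regions within a list, had a median of 64 in members (quartiles 37 and 156) and of 70 in distal regions without FOXA2 (37 and 162), so members were about as strong as their distal counterparts. The single strongest regions were elsewhere, as the highest member score was 5419 against 119312 among distal regions with FOXA2. Members were slightly wider, with a median of 403 bp against 361 bp.

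Members were GC-rich and rich in CpG. In the 200 bases around the centre the median GC content was 64% (quartiles 58 and 70.5%), against 49% (44.5 and 54.5%) in distal regions without FOXA2 and 55.5% (48.5 and 61%) in promoter regions with FOXA2. The ratio of observed to expected CpG was 0.80 in members (quartiles 0.61 and 0.94), 0.21 in distal regions without FOXA2 and 0.46 in promoter regions with FOXA2. GC content was at least 60% in 2660 of 3873 members (68.7%), against 1113 of 10251 distal regions without FOXA2 (10.9%). One member, whose sequence is masked in the reference, was left out of sequence counts.

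Motifs were counted as exact matches on either strand in the same 200 bases. The CRE was found in 376 of 3873 members (9.71%, 8.82 to 10.7%), in 1.61% of distal regions without FOXA2 and in 0.0904% of windows 2 kb away from members. The AP-1 motif went the other way, with 274 members (7.07%, 6.31 to 7.93%) against 17.1% of distal regions without FOXA2 and 3.38% of windows 2 kb away. When the distal regions were weighted to the GC content of members, their CRE share was 6.54% and their AP-1 share 16.2%, so the difference in AP-1 held at equal GC content and most of that in CRE did not. Members shared with accessible promoters that had no JUN the high GC content, but not these motifs: their CRE share was 0.331% (0.243 to 0.45%) and their AP-1 share 1.70% (1.48 to 1.94%), and weighting them to the GC content of members gave 0.354% and 1.83%. Windows of those promoters were centred on the ATAC-seq region and not on a JUN region, a difference that the promoter windows used further below do not have.

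**Figure D1:**
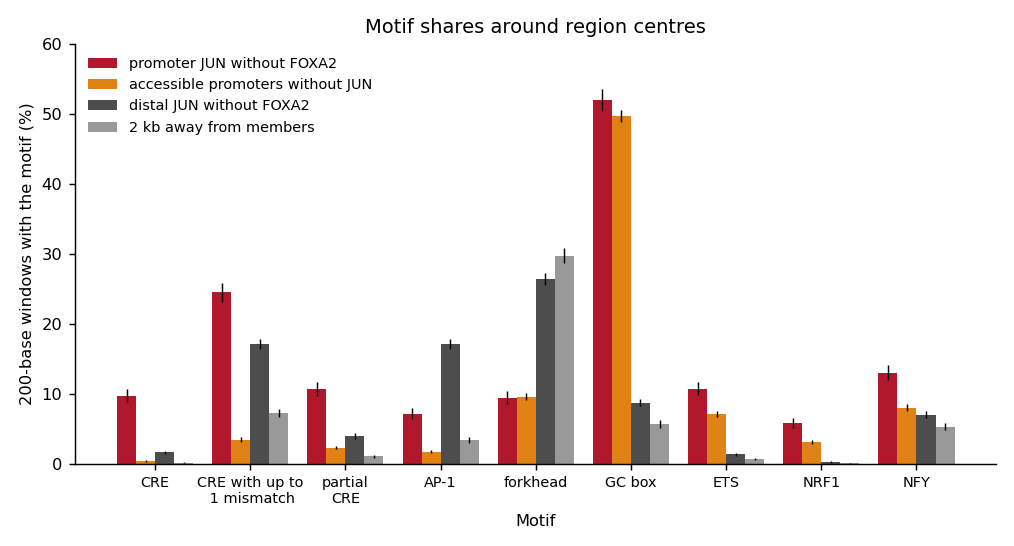
Share of 200-base windows (y axis, percent) that held each motif (x axis), for the 3873 promoter JUN regions without FOXA2 that have a sequence, accessible promoters without JUN, distal JUN regions without FOXA2 and windows 2 kb from members; lines are Wilson 95% intervals. The CRE was at 9.71% in members and 0.331% in accessible promoters without JUN, whereas the GC box was at 51.9% and 49.7%.

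Partial CREs, counted as TGACGTG or TGACGTA or TGACGCA, were in 413 members (10.7%, 9.73 to 11.7%), against 2.27% of accessible promoters without JUN and 3.94% of distal regions without FOXA2. Together the AP-1, CRE and partial CRE motifs covered 1003 members (25.9%), and 2870 (74.1%) held none of them. AP-1 and CRE were rarely found in one window, with 7 members holding both. A CRE with at most 1 changed base was in 948 members (24.5%, 23.1 to 25.9%), against 3.43% of accessible promoters without JUN and 17.1% of distal regions without FOXA2. This definition was added after the exact motif had been counted, and by its construction it takes in some partial CREs.

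The CRE sat at the centre of members. Of 482 CRE matches within 250 bp of a member's centre, 283 (58.7%) were within 50 bp of it, against 182 of 514 AP-1 matches (35.4%), 22.8% of GC box matches and 20.4% of forkhead matches. Relative to the transcript start the CRE had its median at -49 bp (quartiles -121 and -11 bp), and the AP-1 motif was spread more widely, with its median at -33 bp (quartiles -271 and 224.25 bp).

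Motifs of general promoter factors separated members from other accessible promoters much less than the CRE did. The GC box GGGCGG, the core that SP and KLF factors bind, was in 51.9% of members (50.3 to 53.5%) and 49.7% of accessible promoters without JUN, against 8.73% of distal regions without FOXA2. The ETS core CCGGAAG was in 10.7% and 7.06%, the NRF1 motif, by its palindromic core, in 5.78% and 3.05%, the CCAAT box of NFY (CCAATNN with C or G and then a purine) in 13% and 8.02%, and the E-box CACGTG in 7.02% and 4.33% of members and of accessible promoters without JUN. Shares were close for YY1 (AAGATGG, 3.67% and 3.41%), TATA (2.56% and 2.35% for TATAAA) and E2F (TTCCCGC, 6.69% and 5.95%), and for TEAD (CATTCC) they were 9.11% and 6.26%. The forkhead motif of FOXA factors, TNTTTNN with purine, purine and pyrimidine for N, was in 9.40% of members (8.52 to 10.4%) and in 9.58% of accessible promoters without JUN. It was in 40.2% of promoter JUN regions with FOXA2 and in 26.4% of distal JUN regions without it.

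The CRE share climbed with the JUN score. Members were put into 5 groups of equal size by score. In the lowest group (scores 13 to 33) 4 of 775 held a CRE (0.516%, 0.201 to 1.32%), and in the highest group (196 to 5419) 229 of 775 did (29.5%, 26.4 to 32.9%). With at most 1 changed base the shares were 5.55% (4.15 to 7.39%) and 60% (56.5 to 63.4%). AP-1 went from 2.19% (1.37 to 3.48%) to 15.6% (13.2 to 18.3%). Any of the AP-1, CRE and partial CRE motifs was present in 5.94% of the lowest group and 55.7% of the highest. The forkhead share stayed between 8.65 and 10.1% over the 5 groups, and the median GC content between 63.5 and 65%, so neither followed the score.

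**Figure D2:**
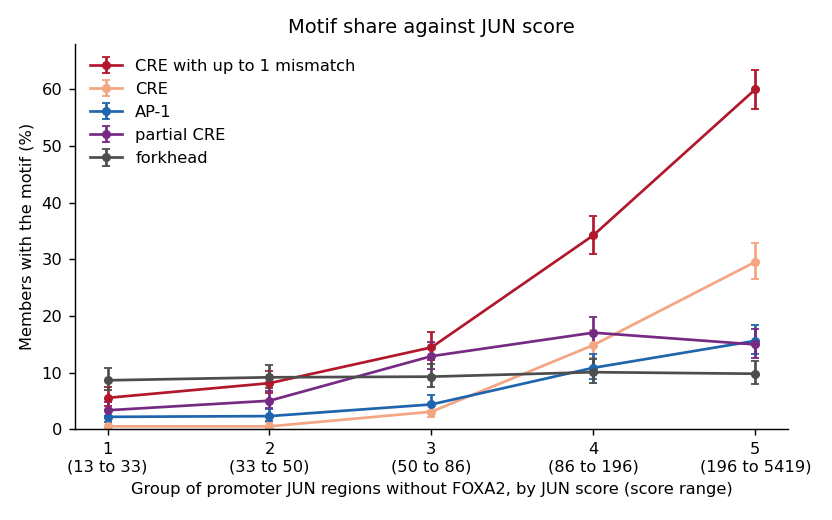
Share of members (y axis, percent) that held each motif in each of 5 equal groups of members by JUN score (x axis, score range in parentheses); bars are Wilson 95% intervals. The CRE with at most 1 changed base went from 5.55% in the lowest group to 60% in the highest, while the forkhead motif stayed between 8.65 and 10.1%.

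Among CRE matches with exactly 1 changed base, those with the change in the central CpG were the most frequent. Because the CRE reads the same on both strands, each substitution was counted with its partner on the other strand. C4G (TGAGGTCA) was in 127 members (3.28%, 2.76 to 3.89%) and C4T (TGATGTCA, the form at the JUN gene) in 125 (3.23%, 2.72 to 3.83%). In the highest score group they were in 9.81% (7.91 to 12.1%) and 10.6% (8.61 to 12.9%) of members, and in accessible promoters without JUN in 0.513% and 0.380%. The third change at that base, C4A (TGAAGTCA), was in 0.878% of members and 0.447% of accessible promoters without JUN. The other 9 substitutions were each in 0.620 to 2.17% of members, A3G (TGGCGTCA) the most frequent of them.

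The reverse view started from all accessible promoters. Of 15882 ATAC-seq regions at protein-coding promoters without FOXA2, 3776 carried JUN (23.8%, 23.1 to 24.4%), against 10.4% (10.2 to 10.6%) of 73363 distal accessible regions without FOXA2. The share followed accessibility closely, from 2.39% (1.75 to 3.27%) in the lowest of 10 equal groups of promoters by ATAC score to 57.3% (54.9 to 59.7%) in the highest. It was higher in each group than in the one before, while the median GC content was between 66 and 69% in all but the lowest 2 groups.

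Whether a promoter motif went with JUN was then asked in a fixed window, from 250 bases before to 50 bases after the canonical start of each gene, so that promoters with and without JUN were read in the same place. A CRE was in 338 of 3691 promoters with a member (9.16%), in 130 of 10039 accessible promoters without JUN (1.29%) and in 2.71% of all 19514 promoters. Read from the motif, 338 of 468 accessible promoters with a CRE carried JUN (72.2%, 68 to 76.1%), against 25.3% (24.6 to 26.0%) of those without. At an equal spread of ATAC scores these shares were 72.1 and 25.3%. The AP-1 motif was in 3.60% of promoters with a member, 2.05% of accessible promoters without JUN and 3.55% of all promoters, and 39.2% (34.2 to 44.5%) of accessible promoters that held it carried JUN. Partial CREs gave 47.8% (44.8 to 50.8%), a CRE with at most 1 changed base 51.3% (48.9 to 53.6%), and promoters with neither AP-1, CRE nor partial CRE 23.1% (22.4 to 23.9%). The GC box gave 26.7% with and 27.5% without it, and the forkhead motif 25% and 27.2%. ETS, NRF1 and E-box promoters carried JUN in 31.9 to 32.3%, against 25.7 to 26.3% of promoters without the motif in question. At an equal spread of ATAC scores the shares came to 29.0 and 26.4% for ETS, 30.9 and 26.3% for NRF1 and 31.7 and 26.4% for the E-box. NFY gave 28.4 and 26.4%, or 23.1 and 28.5% at that spread.

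Promoters with a CRE carried JUN more often at each level of accessibility. In the lowest of 10 groups by ATAC score 14 of 40 of them carried JUN (35%, 22.1 to 50.5%), against 3.60% (2.73 to 4.74%) of those without. In group 5 the shares were 72.2% (59.1 to 82.4%) and 18.4% (16.4 to 20.6%). In the highest group they were 92.5% (80.1 to 97.4%) and 57.8% (55.1 to 60.4%). The intervals did not overlap in any of the 10 groups.

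**Figure D3:**
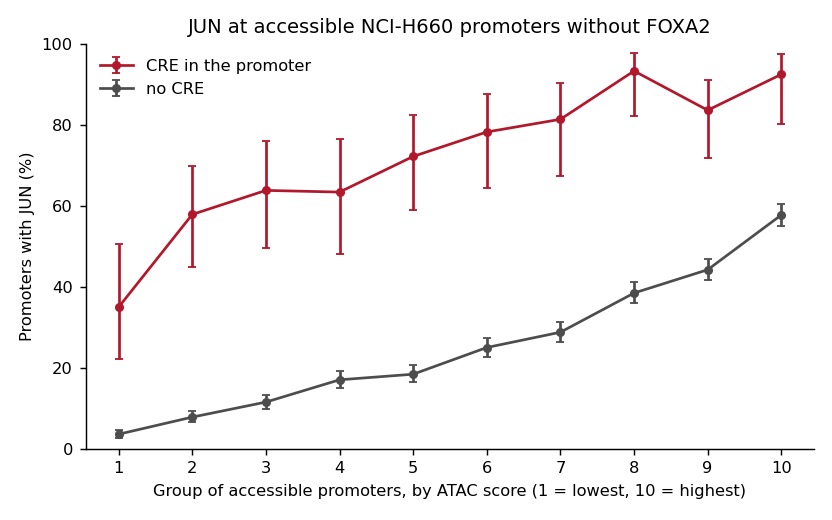
Share of accessible NCI-H660 promoters without FOXA2 that carried JUN (y axis, percent) in each of 10 equal groups by ATAC score (x axis), for promoters with a CRE in the 300-base window and for those without; bars are Wilson 95% intervals. Promoters with a CRE went from 35% to 92.5% and promoters without one from 3.60% to 57.8%.

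Nearly all members lay in open chromatin. The NCI-H660 ATAC-seq list overlapped 3819 members by at least 1 bp (98.6%, 98.2 to 98.9%), where 86% of all siNC JUN regions did so. H3K4me2, a mark of active and poised promoters and enhancers, overlapped 3234 members (83.5%, 82.3 to 84.6%) against 70.4% of all siNC JUN regions. The mark covered the centre of 2045 members (52.8%) and came within 500 bp of the centre in 3731 (96.3%). Members were open in PC3 as well, where the ATAC-seq list overlapped 3467 (89.5%, 88.5 to 90.4%) against 50.4% of all siNC JUN regions, and H3K27ac, a mark of active promoters and enhancers, overlapped 3338 (86.2%, 85.0 to 87.2%) against 38.9%. Distal regions without FOXA2 were at 36.2% and 22.5% in these PC3 lists, and promoter regions with FOXA2 at 72.3% and 65.5%. Counting its own list, a member was overlapped in a median of 7 of the 22 lists, and none was overlapped in more than 16.

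**Figure D4:**
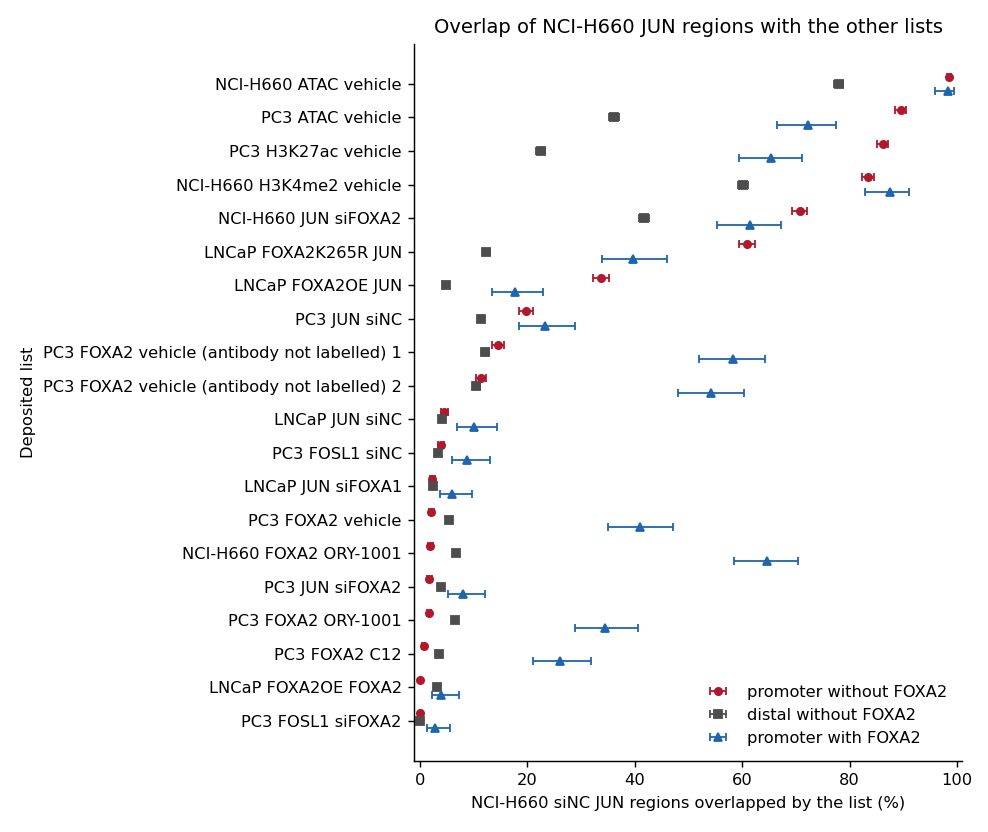
Share of NCI-H660 siNC JUN regions (x axis, percent) overlapped by at least 1 bp of each other deposited list (y axis), for members, distal regions without FOXA2 and promoter regions with FOXA2; bars are Wilson 95% intervals and the 2 lists that chose the classes are left out. Members were above distal regions in the ATAC-seq, histone mark, NCI-H660 siFOXA2 JUN, PC3 siNC JUN, FOXA2OE JUN and FOXA2K265R JUN lists, and below them in most FOXA2 lists.

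JUN at the members was found again in other lines to a very different extent. The FOXA2K265R JUN list of LNCaP overlapped 2360 members (60.9%, 59.4 to 62.4%) against 23.8% of all siNC JUN regions, and the FOXA2OE JUN list 1309 (33.8%, 32.3 to 35.3%) against 11.6%. PC3 siNC JUN overlapped 766 (19.8%, 18.5 to 21.1%) against 16.5%, and LNCaP siNC JUN 178 (4.59%, 3.98 to 5.30%) against 7.12%. LNCaP siFOXA1 JUN overlapped 88 members (2.27%, 1.85 to 2.79%) against 5.58%. The shares of all siNC JUN regions include regions with FOXA2. Distal regions without FOXA2 were at 12.4% for FOXA2K265R JUN and 4.94% for FOXA2OE JUN. They were at 11.4% for PC3 siNC JUN, 4.06% (3.69 to 4.46%) for LNCaP siNC JUN and 2.52% (2.23 to 2.84%) for LNCaP siFOXA1 JUN. Members were above these distal regions except in the LNCaP siNC and siFOXA1 lists, where the intervals overlapped. These lists held from 1964 regions for siFOXA1 to 47505 for FOXA2K265R, and the longer lists overlapped more members. The PC3 siNC list (23890 regions) and the FOXA2OE list (23994 regions) were of about equal length, but their lowest scores were 13 and 30. The part of list length in these shares was not tested. Promoters with and without JUN in NCI-H660, read as whole ATAC-seq regions, allow a comparison within 1 list: FOXA2K265R JUN was at 66.9% (65.4 to 68.4%) of accessible promoters with JUN and 32.1% (31.3 to 33.0%) of those without, FOXA2OE JUN at 39.3% and 18.4%, PC3 JUN at 21.3% and 5.21%, and LNCaP siNC JUN at 4.82% and 0.173%. The median ATAC score was 1049 in accessible members and 471 in accessible promoters without JUN, and its part in these shares was not tested.

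Of the members, 1220 (31.5%) had JUN in none of the PC3 siNC, LNCaP siNC, FOXA2OE and FOXA2K265R lists, and 83 (2.14%) had it in all 4. The most frequent pattern with any of them was FOXA2K265R alone (951 members, 24.5%), followed by FOXA2K265R with FOXA2OE (734, 18.9%). These patterns were not counted over all siNC JUN regions, so they are not read as traits of members. The motifs of the members differed between lists. Of the 766 members with JUN in PC3 siNC, 20.9% held an AP-1 motif and 14.1% a CRE, against 3.67% and 8.62% of the other members. Of the 1309 with JUN in FOXA2OE cells, 6.34% held AP-1 and 18.6% a CRE, against 7.45% and 5.19% of the rest. The median NCI-H660 score was 145 against 55 for PC3 siNC and 114 against 54 for FOXA2OE. The 178 members with JUN in LNCaP siNC cells were strong, with a median NCI-H660 score of 520 against 61 in the rest, and 20.2% held AP-1 and 31.5% a CRE. Both motifs climbed with the score in members, and these motif shares were not set at equal score.

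FOSL1, a FOS-family partner of JUN, overlapped 152 members in PC3 siNC cells (3.92%, 3.36 to 4.58%) against 3.48% (3.14 to 3.85%) of distal regions without FOXA2, and 96 of the 152 also carried PC3 JUN. All siNC JUN regions were at 6.72%, which includes 17.5% of distal regions with FOXA2. AP-1 motifs were in 26.3% of the 152 and in 6.29% of the other members, and the CRE in 7.24% and 9.81%. The median NCI-H660 scores of these 2 groups were 121 and 63, and their motif shares were not set at equal score. Under siFOXA2, FOSL1 was listed at 3 members (0.0774%, 0.0263 to 0.227%), against 0.0488% (0.0208 to 0.114%) of distal regions without FOXA2 and 1.37% of all siNC JUN regions, a difference from the former that is within the intervals.

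The other FOXA2 lists overlapped members to different extents. Shares of all siNC JUN regions are given as background only, since they include the regions that carried FOXA2 in NCI-H660, and members are compared with distal regions without FOXA2, chosen by the same lack of it. The ORY-1001 FOXA2 list of NCI-H660 overlapped 75 members (1.94%, 1.55 to 2.42%) and 6.80% of those distal regions, with 22.6% of all siNC JUN regions. In PC3 under vehicle FOXA2 overlapped 84 members (2.17%, 1.75 to 2.68%) and 5.44% of distal regions without FOXA2, with 10.8% of all. Under ORY-1001 it overlapped 66 members (1.70%, 1.34 to 2.16%) and 6.63% of distal regions, with 11% of all, and under C12 27 members (0.697%, 0.479 to 1.01%) and 3.60%, with 8.16% of all. The FOXA2 list of FOXA2OE LNCaP cells overlapped 5 members (0.129%, 0.0551 to 0.302%) and 3.13% of distal regions, with 5.89% of all. In these 5 lists members were below the distal regions. In the 2 long PC3 FOXA2 lists with no labelled antibody they were not, with 562 members (14.5%, 13.4 to 15.7%) against 12.2% (11.6 to 12.9%) of distal regions and 17.6% of all, and 439 members (11.3%, 10.4 to 12.4%) against 10.5% (9.94 to 11.1%) and 15.4% of all. Read as whole ATAC-seq regions, these 2 lists covered 22.1% and 17% of accessible promoters with JUN and 12.6% and 10.0% of those without. The ORY-1001 FOXA2 list of NCI-H660 covered 3.26% and 1.16% of the same promoters.

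In NCI-H660 cells given siFOXA2, JUN stayed listed at most members. Because the members were drawn from the siNC list, they could only be listed again or lost. The siFOXA2 list overlapped 2741 (70.8%, 69.3 to 72.2%), against 48% of all siNC JUN regions and 41.7% (40.8 to 42.7%) of distal regions without FOXA2, a difference of 29.0 percentage points. Distal regions weighted to the scores of members gave 41.7% again. Promoter regions with FOXA2 were at 61.4% (55.3 to 67.3%) and distal regions with FOXA2 at 41.2% (39.7 to 42.7%). The siFOXA2 list held 59452 regions, over 3 times as many as the siNC list, and its regions at members were wide, with a median of 583 bp where the same members had 428 bp under siNC.

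**Figure D5:**
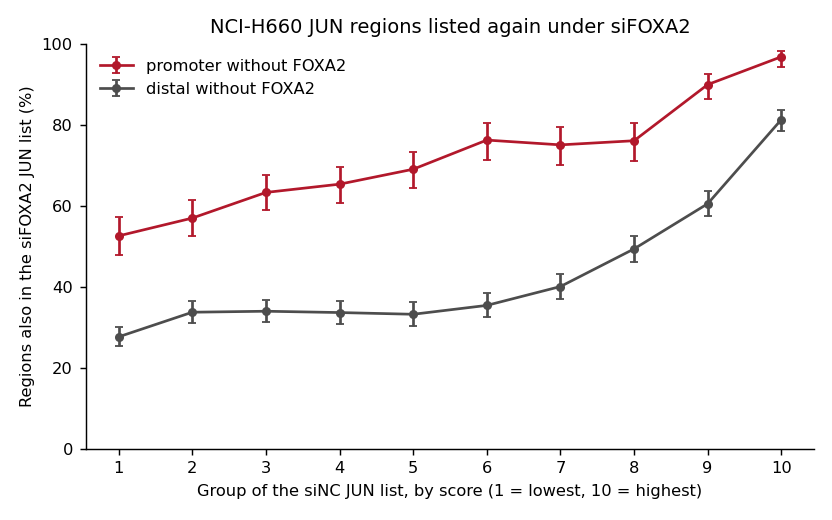
Share of NCI-H660 siNC JUN regions also in the siFOXA2 JUN list (y axis, percent) in each of 10 equal groups of the siNC list by score (x axis), for members and for distal regions without FOXA2; bars are Wilson 95% intervals. Members went from 52.6% to 96.8% and distal regions from 27.7% to 81.3%.

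Members were above distal regions without FOXA2 in each of the 10 score groups. In the lowest group 223 of 424 members (52.6%) and 27.7% of distal regions were listed again, in group 6 76.3% and 35.4%, and in the highest group 337 of 348 (96.8%) and 81.3%. The gap also remained at equal accessibility: among accessible regions 71.3% (69.8 to 72.7%) of members were listed again, against 44.9% of distal regions and 49.3% once these were weighted to the ATAC scores of members. The siFOXA2 list reached promoters broadly, since it covered 3487 of 12106 accessible promoters that had no JUN under siNC (28.8%, 28.0 to 29.6%) against 8.49% of such distal accessible regions, or 12.9% of these at equal ATAC score. With only the 18401 highest-scoring siFOXA2 regions, the share of members listed again was 49.9%, and that of distal regions without FOXA2 was 30.3%.

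Members listed again and members lost differed in strength. The 2741 had a median siNC score of 80 (quartiles 42 and 209) and the 1133 lost 45 (30 and 78), and their median ATAC scores were 1139 and 842. Members with a CRE were listed again in 83% (78.9 to 86.4%) and members without in 69.4% (67.9 to 70.9%). At equal siNC score the shares were 66.1 and 71.0%. AP-1 gave 77.4% and 70.3%, and 67.1 and 70.9% at equal score. These equal-score shares have no interval and rest on few weak members with the motif. In score groups 1 and 2 of 5, a CRE was in 4 of 775 and 4 of 774 members. AP-1 was in 17 and 18 of them, so whether the order turned at equal score cannot be told. The GC box kept its order, with 75.2% (73.3 to 77.0%) and 66.0% (63.8 to 68.1%), or 74.5 and 66.9% at equal score. The forkhead motif went with loss, with 62.6% (57.6 to 67.5%) and 71.6% (70.1 to 73.1%), or 62.2 and 71.6% at equal score, and so did TATA, with 56.6% (46.7 to 65.9%) and 71.1% (69.7 to 72.5%). Members listed again in NCI-H660 siFOXA2 cells had FOXA2K265R JUN in 73.9% and lost members in 29.5%. The order was the same for FOXA2OE JUN (41.7 and 14.7%), PC3 siNC JUN (24.0 and 9.62%) and PC3 H3K27ac (89.1 and 79.0%). These overlap shares were not set at equal score.

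The siFOXA2 list also held 5004 promoter regions without FOXA2 that overlapped no siNC JUN region, beside 2725 that did. These new regions were weak, with a median score of 34 against 76, and 80.0% of them were accessible against 99.3%. They held few JUN motifs, with a CRE in 36 (0.719%) and AP-1 in 115 (2.30%), against 8.92% and 7.05% in the 2725, at a similar GC content (medians 64.5 and 66%). In PC3 the siFOXA2 JUN list overlapped 69 members (1.78%, 1.41 to 2.25%), against 3.91% of distal regions without FOXA2 and 6.41% of all siNC JUN regions. Of the 766 members with JUN in PC3 siNC cells 65 still had it. The whole PC3 JUN list went from 23890 to 4081 regions. The share of all PC3 siNC JUN regions listed again is not given here, so this loss is not read as a trait of members. Promoter JUN regions without FOXA2, set by the NCI-H660 list, numbered 3874 and 7729 in NCI-H660 under siNC and siFOXA2. With FOXA2 set by the PC3 vehicle list they numbered 1684 and 126 in PC3.

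The strongest member was the promoter of JUN itself (ENSG00000177606, chr1:59249571-59250163). Its score was 5419 under siNC, where it ranked 15 of 18401, and 4677 under siFOXA2. The region was also listed in PC3 siNC (300), LNCaP siNC (no score), FOXA2OE (373), FOXA2K265R (2035) and LNCaP siFOXA1 (527), but not in PC3 siFOXA2. Scores are given to show presence and rank in each list and are not compared between lists. The second, JUND (score 3299 under siNC and 3388 under siFOXA2), encodes a JUN paralogue and was listed in 14 of the 22 lists, PC3 siFOXA2 among them. ATF3, a stress-induced ATF-family repressor that can pair with JUN, ranked 10 among members (score 2011 under siNC and 1683 under siFOXA2) and had no AP-1 or CRE match in its central window. GSN, the actin-severing protein gelsolin, scored 2983 and 2339, MYL6, a myosin light chain, 2876 and 1516, and EXT1, a heparan sulfate polymerase, 2425 and 2313. S100A2, a calcium-binding protein, scored 2327 and 1913 and had the strongest PC3 siNC JUN of these (1871), with an AP-1 motif 58 bp downstream of its start. RASSF1, a RAS-association domain protein, scored 2237 and 1742, DTNA, the cytoskeletal protein dystrobrevin alpha, 2166 and 1855, SIPA1L1, a RAP GTPase-activating protein, 2064 and 1838, KMT2E 1979 and 1969, and DAAM1, a formin, 1887 and 1088. All 12 were listed under siFOXA2, in PC3 siNC and in both FOXA2OE and FOXA2K265R JUN lists. Over all members the shares were 70.8%, 19.8%, 33.8% and 60.9%. The 12 were chosen by score, and 96.8% of members in the highest of 10 score groups were listed again under siFOXA2. Members in the PC3 siNC, FOXA2OE and FOXA2K265R lists had higher median NCI-H660 scores than the rest (145 against 55, 114 against 54 and 78 against 51). The presence of the 12 in these lists is therefore not read as a trait of these genes.

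Members were at the starts of 4268 of 19794 protein-coding genes (21.6%), or 28.8% of the 14779 genes with an accessible promoter. The gene lists below were written with earlier results of these data known, and most hold few genes, so their shares are read against that 28.8% and their intervals. Genes of the AP-1 and ATF/CREB families had a member in 14 of 32 (43.8%, 28.2 to 60.7%), with a median score of 209. Next to JUN, JUND and ATF3 these were CREB5, FOSL2, MAFF, FOSB, MAFG, CREB3L2, CREM, ATF7, CREB3, NFE2L2 and CREB1. Immediate early and stress response genes had one in 12 of 30 accessible genes (40.0%, 24.6 to 57.7%), led by KLF6, a zinc finger factor (score 1602 under siNC and 1745 under siFOXA2), BTG2, an antiproliferative gene (1385 and 1267), and DUSP1, a MAP kinase phosphatase (1161 and 1052). DUSP8, a further phosphatase of this family, scored 1766 and 1604.

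Chaperone and unfolded protein response genes had a member in 14 of 28 (50%, 32.6 to 67.4%). They were led by DDIT3, the stress factor CHOP, which shares its region with MBD6 (score 1776), HSP90AB1, a cytosolic chaperone (634), and CHAC1, a glutathione-degrading enzyme (210). Of the 14, 12 (85.7%) were listed again under siFOXA2, against 71.5% of all genes with a member. In the other gene lists this share was 52.6 to 80%, and these shares were not set at equal score. Proteasome genes had one in 19 of 37 accessible genes (51.4%, 35.9 to 66.6%), but with a low median score of 45. PSMD8 (285), PSMD5 (267) and PSMB1, at a region shared with TBP (175), were the highest. Respiratory chain genes had one in 27 of 78 (34.6%, 25 to 45.7%), among them NDUFS5 (540), UQCRB (528) and ATP5ME, at a region shared with MYL5 (365). CYCS, which encodes cytochrome c and was in none of the lists, scored 1589.

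The other housekeeping lists were near the share of all accessible genes, which lay within their intervals. Replication-dependent histone genes had a member in 16 of 50 (32%, 20.8 to 45.8%), with HIST1H4B (1646), H4C5 (1223) and H4C8 (1000) at the top, each with a CRE. Cytosolic ribosomal protein genes had a member in 19 of 75 (25.3%, 16.9 to 36.2%), where RPS29 (746) and RPL3 (220) held a CRE and RPS13 (214) a match with 1 changed base. Splicing factor genes had one in 14 of 41 (34.1%), with SRSF1 (181), SRSF2, at a region shared with MFSD11 (123), and SRSF6, at a region nearest to the unnamed ENSG00000288000 (99), leading. For DNA replication genes it was 9 of 37 (24.3%), with GINS1, at a region shared with ABHD12 (176), PRIM2 (81) and PCNA (80), and for mitosis and kinetochore genes 8 of 31 (25.8%), with NDC80, at a region nearest to METTL4 (185), TTK (68) and AURKA, at a region nearest to CSTF1 (58). GINS1, RPL3, PCNA and ATP5ME were among the members lost under siFOXA2.

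The shares of lineage genes had wide intervals that overlapped between lists. Neuroendocrine lineage transcription factor genes had a member in 5 of 20 accessible genes (25%, 11.2 to 46.9%): SOX4 (828), SOX11 (259), FOXA1 at a region nearest to TTC6 (204), SOX2 and PROX1. Neuroendocrine secretory and neuronal genes had one in 13 of 25 (52.0%, 33.5 to 70.0%), an interval above the 28.8% of all accessible genes, led by PCSK2, a prohormone convertase (698), NCAM1, a neural adhesion molecule (269), and STMN1, a microtubule regulator (247), and including CHGA, CHGB, SCG3 and VGF. Androgen receptor and luminal genes had one in 6 of 16 (37.5%, 18.5 to 61.4%), with the luminal keratins KRT8 (578) and KRT18, at a region that also holds a KRT8 start (176), and NDRG1 (95) at the top. The intervals of the transcription factor and of the luminal genes held 28.8%. An interval above it was not particular to the secretory and neuronal genes. Those of the chaperone genes (32.6 to 67.4%) and the proteasome genes (35.9 to 66.6%) were above it too. The shares were not set at equal ATAC score.

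Members were unevenly spread over chromosomes. The share of accessible promoters with JUN was highest on chromosomes 8 (38.2%, 34.3 to 42.2%), 14 (37.2%), 6 (36.1%) and 3 (35.1%), and lowest on chromosomes 22 (11.1%, 8.34 to 14.5%), 16 (13.5%) and 15 (13.7%), leaving aside Y with 15 such promoters. The median ATAC score moved with it, at 771.5 to 859 on the first group and 292.5 to 408 on the second. At an equal spread of ATAC scores the shares were 28.2 to 30.1% on the first group and 16.0 to 19.2% on the second. NCI-H660 is a cultured tumour line, copy number was not measured here, and its part in this pattern was not tested.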

How the data were processed

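The authors aligned paired ChIP-seq and ATAC-seq reads to hg19 with bwa 0.7.17-r1188, handled them with SAMtools 1.9 and called enriched regions with MACS2 2.1.4. Control libraries, pooling and ATAC read shifts were not given in the sources used here. The 22 deposited lists gave intervals and in 20 of them a score that the authors deposited, whose range fits 10 times the −log10 q-value (minimum 13 in most lists). This reading is an inference, and scores served only to rank or filter within a list. Depth was unknown. The LNCaP siNC JUN and FOXA2OE FOXA2 lists had no score.

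Members, gene lists, motifs and comparisons were chosen with earlier results of these data known. Starts were those of 78703 protein-coding transcript positions in GENCODE 44 lifted to hg19, and sequence was read from GRCh37, the same build. A region was placed by its base nearest to a start, at most 1 kb away. Regions overlapped if they shared at least 1 bp. Motifs and GC content were read in 100 bp on either side of the centre, as exact matches on both strands. Shares at equal GC content, score or ATAC score are averages over strata (10 for scores) with the weights of the members or, for accessible promoters, of all such promoters. Overlap, motif and weighting code was tested on simulated data. Named are the 12 top members by score, up to 3 top genes per gene list, the members whose sequences are printed (none from chromosome 8) and those at the limits of the rule; CYCS, DUSP8 and HIST1H4B are among the printed ones. Other genes of a list are named as its members, and sites with 1 changed base were added after seeing the data. Among histone genes 2 carry older symbols in the annotation and were added to the list late. Alternatives changed the distance, transcripts, FOXA2 lists, overlap, score minimum, window and chromosomes. Python 3.11.15, pandas 2.3.3, scipy 1.17.1 and pysam 0.24.0 were used.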

Additional observations from a re-analysis of the deposited data

Results flagged for a closer look

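The number of promoter JUN regions without FOXA2 moved in opposite directions under siFOXA2 in the 2 lines. In NCI-H660 it went from 3874 to 7729 (log2 ratio 1.00, 0.94 to 1.05 from counting error), and in PC3 from 1684 to 126 (log2 ratio -3.74, -4.00 to -3.48). This was noted because the lines went opposite ways, and with 1 list per arm the difference was not tested. The whole JUN lists moved likewise, from 18401 to 59452 regions and from 23890 to 4081, so the promoter share of the lists was 21.1 and 13% in NCI-H660 and 7.05 and 3.09% in PC3.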

How the results depend on the processing

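Of 215 values recomputed under alternatives, 126 stayed within their counting interval or, for numbers of genes, within 1.5 times, 89 moved further and 0 reversed. Only the differences in percentage points could reverse, since shares, medians and counts are never negative. The alternative without members found in 17 or more lists removed 0 members. Its member shares therefore repeated the main values, and they count among the 126. Requiring at least 50% of both regions to overlap lowered every share: in NCI-H660 to 0.697% for ORY-1001 FOXA2, 8.93% for H3K4me2 and 20.7% for ATAC-seq; in LNCaP to 0.0516% for FOXA2OE FOXA2, 21% for FOXA2OE JUN, 38.7% for FOXA2K265R JUN, 1.45% for siFOXA1 JUN and 3.46% for siNC JUN; in PC3 to 0.387% for C12, 0.800% for ORY-1001 and 1.16% for vehicle FOXA2, 7.33% and 5.89% for the lists with no labelled antibody, 2.37% and 0.0258% for siNC and siFOXA2 FOSL1, 14.9% and 1.24% for siNC and siFOXA2 JUN, 8.42% for H3K27ac and 37.2% for ATAC-seq. The share listed again under siFOXA2 was then 46.6%, and 15.2 points above distal regions at equal score. Where regions of each list had to score 50 or more, the shares were 0.935% for NCI-H660 ORY-1001 FOXA2, 81.7% for H3K4me2, 98.9% for ATAC-seq, 37.7% for FOXA2OE JUN, 3.14% for siFOXA1 JUN, 22.5% and 2.38% for PC3 siNC and siFOXA2 JUN, and 12.1% and 9.69% for the lists with no labelled antibody. The share listed again was 65.8% at that minimum (27.2 points above distal regions), 67.5% at a minimum of 100, 49.9% with equal numbers of regions (19.9 points) and, in an alternative chosen after seeing the data, 67.2% without chromosomes 3, 6, 8 and 14.

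With 250 bp on either side of the centre, the whole region, or only members scoring at least 50, the motif shares were 12, 12.3 and 10.2% for AP-1, 11.6, 11.9 and 15.6% for CRE, 17.5, 18.0 and 14.9% for partial CREs and 75.5, 71.9 and 53.5% for the GC box, and the forkhead share was 23.0 and 20.2% in the wider windows. A CRE with up to 1 changed base, also added after seeing the data, gave 24.5%. The wider window had a median GC content of 63.2% and a CpG ratio of 0.786. With JUN scores of at least 50, 14.7% of accessible promoters carried JUN, 14.5% of those without a CRE, and 30.4 and 16.0% of those with and without AP-1; without the 4 chromosomes the values were 21.1%, 22.3% without a CRE and 23.6% without AP-1. Genes with a member scoring at least 50 numbered 2653 of all genes, 12 ribosomal, 17 respiratory, 9 proteasome, 8 splicing, 5 replication, 4 mitosis and 3 neuroendocrine transcription factor genes. No paired analysis was possible because each group held 1 list. Depth could not be assessed without read counts.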
